A study of Mus musculus with 2 samples.

Results

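The 32 genes described here carry glucose into the cell, split it to pyruvate, turn pyruvate to lactate, move lactate across the membrane and control the entry of pyruvate into the mitochondrion. They were chosen by name for these functions, with earlier results of these data known, and all 32 were found among the 43346 genes of the deposited tables. Glycolysis cleaves glucose to pyruvate in the cytosol with a small net gain of ATP, and lactate dehydrogenase regenerates the NAD+ that the pathway uses. Pyruvate that is not made into lactate enters the mitochondrion, where the pyruvate dehydrogenase complex converts it to acetyl-CoA unless kinases switch the complex off. Many steps are served by several isozymes with different tissue distributions, and pluripotent stem cells are known for a high rate of glycolysis and lactate release.

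Total RNA was sequenced from ES-E14, a mouse embryonic stem cell line from a male embryo of strain 129/Ola, with no treatment, allele or time point named in the labels. The series held 1 group of 2 libraries, replicates 1 and 2, which the labels trace to the same source sample. Their spread may therefore be technical, and the labels do not settle whether it is technical or biological. No comparison between conditions was possible, and none of the differences between libraries below was tested. Paired values list replicate 1 first, in TPM (transcripts scaled for length to a fixed sum in each library), and means carry the SD over n = 2 libraries. Depth was 43163300 and 45573512 expected counts on genes, of which the 32 genes took 1.07% and 0.860%.

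The pluripotent cell markers Pou5f1 (162 and 201 TPM), Sox2 (31.98 and 39.5 TPM), Nanog (17.2 and 31.9 TPM), Zfp42 (78.2 and 115 TPM), Esrrb (33.0 and 29.3 TPM) and Dppa5a (613 and 597 TPM) were all present. Of 10 feeder fibroblast markers, 6 reached 1 TPM in both libraries, and their summed level was 137 and 458 TPM. Vim (88.9 and 302 TPM), Acta2 (33.0 and 100.2 TPM), Col1a1 (7.21 and 28.8 TPM), Col1a2 (3.58 and 12.1 TPM) and Col3a1 (1.21 and 10.5 TPM) were each at least 2-fold higher in replicate 2. Pdgfrb was at 0.95 and 2.15 TPM, Thy1 at 2.27 and 1.62 TPM, Postn at 0.21 and 0.64 TPM and Dcn at 0.06 and 0.19 TPM, while Lum had no count in either library. Of 6 skeletal muscle markers, Acta1 (10.2 and 7.49 TPM) alone reached 1 TPM in both libraries, and the others, Tnnt3, Ckm, Myog, Myh4 and Myh1, summed with it to 10.7 and 9.21 TPM. Of 6 neuronal markers, Stmn2 (54.6 and 38.8 TPM) and Tubb3 (13.3 and 27.1 TPM) reached 1 TPM in both libraries, and Map2, Syt1, Rbfox3 and Snap25 did not, with a sum over all 6 of 69.1 and 66.6 TPM. In such bulk libraries, fewer cells of a type and less RNA per cell cannot be told apart.

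Among the 32 genes, Hk2, Aldoa, Pgam1, Eno1 and Ldha stood well above the other forms of their steps in TPM. At the other steps with several forms, the leading share was smaller. Of the 32 genes, 28 (87.5%) reached 1 TPM in both libraries, where 46.3% of 21474 protein-coding genes did. The 8 genes at or above 100 TPM in both libraries were 25.0% of the 32, where 1.20% of protein-coding genes reached that level. These 8 were Gapdh, Pkm, Slc2a3, Aldoa, Slc2a1, Eno1, Pgam1 and Ldha. Together the 32 genes summed to 3020 and 2873 TPM, which was 1.56% and 1.21% of all protein-coding TPM. The genes under 1 TPM were Pgam2, Pdk4, Pdk2 and Hk3.

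**Figure D1:**
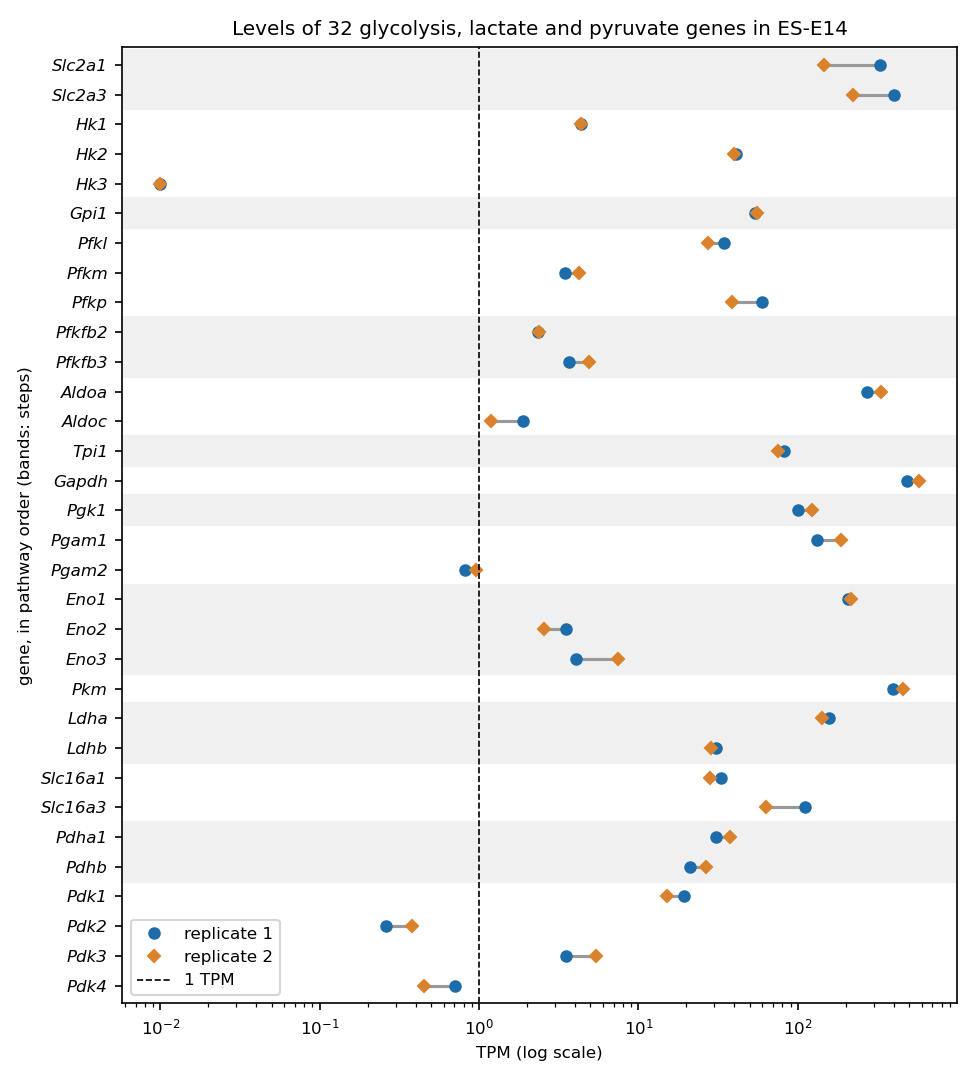
TPM of each gene (log axis) in replicate 1 (circles) and replicate 2 (diamonds), with genes in pathway order and shaded bands marking steps. Gapdh and Pkm stand highest, Hk3 lies at 0.01 TPM, and the widest gaps between libraries among the abundant genes are those of Slc2a1, Slc2a3 and Slc16a3.

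Pyruvate kinase, which makes pyruvate and ATP in the last step, was present almost wholly as its M2 form. The gene Pkm (chr9:59656368-59679375, plus strand, GRCm38) stood at 394 and 458 TPM, so replicate 2 was the higher in TPM, while with TMM scaling, described below, it was the lower (log2 difference -0.08). Its transcripts use 1 of 2 mutually exclusive exons of 167 bases each: the M1 exon, known from muscle and brain, or the M2 exon, known from embryonic and proliferating cells. The tables held 2 Pkm transcripts, each with 11 exons and the same length, which differ in their exon 9. The 2 exons are shown because the split between the forms rests on reads that touch them. Both are on the plus strand and read from GENCODE M21 transcripts, with capitals at the 64 bases that differ between them (61.7% identity). The M1 exon lies at chr9:59675029-59675195 and the M2 exon at chr9:59675568-59675734.
Pkm-202, M1 exon: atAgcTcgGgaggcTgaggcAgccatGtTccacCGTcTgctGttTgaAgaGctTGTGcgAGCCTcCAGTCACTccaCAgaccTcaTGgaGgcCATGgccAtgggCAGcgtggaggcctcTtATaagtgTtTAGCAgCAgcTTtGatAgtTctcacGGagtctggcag
Pkm-201, M2 exon: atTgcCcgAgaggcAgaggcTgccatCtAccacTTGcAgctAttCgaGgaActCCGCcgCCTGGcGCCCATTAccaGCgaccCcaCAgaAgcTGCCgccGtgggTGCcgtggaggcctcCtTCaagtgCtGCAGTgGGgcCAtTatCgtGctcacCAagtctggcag

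The transcript with the M2 exon, Pkm-201, made up 96.99% and 96.82% of the gene's output (96.9% ± 0.120). The transcript with the M1 exon, Pkm-202, made up 3.01% and 3.18% (3.10% ± 0.120), or 11.9 and 14.6 TPM. The M1 transcript therefore carried 2099 and 2456 expected counts of the 69688 and 77125 on the gene, and the shares of the libraries did not overlap between the forms. Splicing factors known to act on this exon choice were all expressed: 8 of 8 reached 1 TPM in both libraries, where 46.3% of protein-coding genes did. Ptbp1, which represses the M1 exon, stood at 80.6 and 102.09 TPM. Hnrnpa1, which also represses it, stood at 54.4 and 111 TPM, and was the 1 factor of the 8 that differed 2-fold between the libraries, on the TPM scale but not after TMM scaling (log2 difference 0.73). Srsf3, which promotes the M2 exon, stood at 52.1 and 76.8 TPM. All 8 factors were higher in replicate 2 in TPM, where 71.7% of protein-coding genes were, and the M2 share differed between the libraries by less than 1 percentage point.

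At the membrane, the hexose transporters Slc2a1 (GLUT1) and Slc2a3 (GLUT3) were among the 5 highest of the 32 genes by mean TPM. Slc2a3, the high-affinity form known from neurons and early embryos, was at 399 and 222 TPM, and Slc2a1, the widely expressed form, was at 329 and 147 TPM. Slc2a3 led Slc2a1 within each library, with 57.5% ± 3.84 of their sum. Replicate 2 of Slc2a3 lay below replicate 1 of Slc2a1, so the libraries of the pair overlapped and no order was called between them. Counting protein-coding transcripts alone, a measure added after seeing the data, Slc2a1 led in replicate 1 (327 against 313 TPM) and Slc2a3 in replicate 2 (192 against 144 TPM). An order was called only where every library of one gene lay above every library of the other and the deposited interval bounds did not overlap. By that rule, in TPM over all transcripts, 19 of 22 pairs of forms at the same step had an order.

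Glucose phosphorylation, which traps glucose in the cell, was led by Hk2, the inducible hexokinase of insulin-sensitive tissues and proliferating cells. Hk2 stood at 41.0 and 39.7 TPM and Hk1, the hexokinase of brain and red cells, at 4.36 and 4.38 TPM. Hk3, a leukocyte form, had 3 expected counts in each library. Hk2 made up 90.2% ± 0.244 of the summed TPM of the 3 genes, and the libraries of Hk2 and Hk1 were far apart. The ADP-dependent glucokinase Adpgk, outside the 32 genes, was at 15.5 and 13.4 TPM, and with it and the other glucokinases counted the Hk2 share was 67.5%. The deposited TPM of Hk1 lay below its own deposited interval, which ran from 4.55 to 5.72 TPM in replicate 1 and from 4.68 to 6.09 TPM in replicate 2, so its low level is less certain than the spread between libraries implies. Gpi1, the isomerase that follows, stood at 54.1 and 55.8 TPM.

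Phosphofructokinase, the committed step, is a tetramer whose subunits can mix. The platelet subunit Pfkp stood at 59.3 and 38.4 TPM, the liver subunit Pfkl at 34.5 and 27.1 TPM and the muscle subunit Pfkm at 3.47 and 4.24 TPM. Over all transcripts the order in both libraries was Pfkp, Pfkl, Pfkm, with mean shares of 58.0% ± 4.21, 37.2% ± 2.44 and 4.82% ± 1.77. In protein-coding transcripts alone the order of the leading pair turned in both libraries: Pfkl stood at 29.1 and 24.0 TPM and Pfkp at 23.7 and 17.3 TPM. Of the bifunctional enzymes that set the level of fructose 2,6-bisphosphate, an activator of phosphofructokinase, Pfkfb3 was at 3.69 and 4.87 TPM and Pfkfb2 at 2.34 and 2.39 TPM. Pfkfb3, whose kinase activity prevails, led with 64.1% ± 4.16, and with Pfkfb1 and Pfkfb4 counted its share was 47.3%.

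The lower glycolytic steps each had 1 form that made up more than 95% of the summed TPM of the listed genes. For enolase this leaves out the near-identical Eno1b (230 and 262 TPM), described below. Aldoa, the muscle-type and general aldolase, stood at 274 and 334 TPM, and Aldoc, the brain form, at 1.89 and 1.19 TPM. Pgam1, the general phosphoglycerate mutase, stood at 131 and 186 TPM, and the muscle form Pgam2 at 0.81 and 0.95 TPM. Eno1, the general enolase, stood at 206 and 215 TPM. The forms named for other tissues were each far below these in both libraries, with shares of 0.521% ± 0.234 for Aldoc and 0.560% ± 0.0753 for Pgam2. The muscle enolase Eno3 was at 4.06 and 7.43 TPM and the neuronal enolase Eno2 at 3.50 and 2.56 TPM, and their interval bounds overlapped, so no order was called between those 2 forms. Steps with 1 gene held Tpi1, which interconverts the triose phosphates, at 81.7 and 74.6 TPM. Gapdh, which makes NADH, stood at 484 and 577 TPM, the highest of the 32 genes in each library. Pgk1, the first step to yield ATP, stood at 99.6 and 123 TPM.

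Lactate dehydrogenase was mostly its A subunit, the form known for favouring lactate production. Ldha stood at 158 and 143 TPM and Ldhb, the heart-type subunit, at 30.7 and 28.5 TPM. The Ldha share was 83.5% ± 0.247 and nearly the same in both libraries. Of the lactate transporters, Slc16a3 (MCT4), known for lactate export from glycolytic cells, was at 111 and 63.1 TPM. Slc16a1 (MCT1), which carries lactate in either direction, was at 33.1 and 28.1 TPM. Slc16a3 led in both libraries with 73.1% ± 5.51 of the sum. Without the length correction, on expected counts, its share was 57.6% in replicate 1 and 47.4% in replicate 2, so Slc16a1 had more counts in replicate 2.

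At the entry to the mitochondrion, Pdha1 and Pdhb encode the 2 subunits of the pyruvate dehydrogenase E1 enzyme. Pdha1 stood at 30.8 and 37.7 TPM and Pdhb at 21.2 and 26.5 TPM, so Pdha1 was the higher in each library. In TPM both were higher in replicate 2, without overlap of their bounds. Over all transcripts, the kinases that inactivate the enzyme were led by Pdk1, known as a target of hypoxia-inducible factor, at 19.4 and 15.1 TPM. Pdk3 stood at 3.53 and 5.41 TPM. Pdk4, known for its rise in fasting, stood at 0.71 and 0.45 TPM, and Pdk2 at 0.26 and 0.38 TPM. Pdk1 made up 81.2% of the 4 kinases in replicate 1 and 70.7% in replicate 2, and Pdk3 14.8% and 25.4%. That lead was lost in the TPM of protein-coding transcripts alone, where Pdk1 stood at 3.57 and 2.84 TPM and Pdk3 at 3.53 and 5.37 TPM. By that measure they were level in replicate 1 and Pdk3 was the higher in replicate 2. On expected counts with no length correction, the coding Pdk1-201 (5185 bases) held 1395 and 1057 and Pdk3-201 (2115 bases) 537 and 778. The order of Pdk4 and Pdk2 was not called, since their bounds overlapped.

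**Figure D2:**
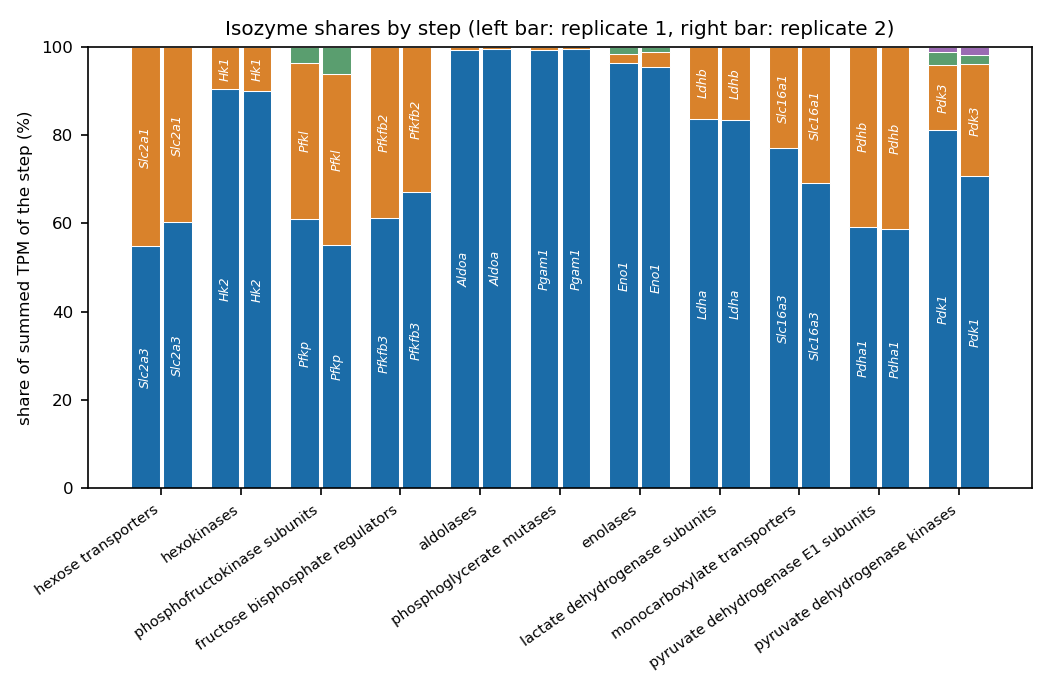
Share of the summed TPM of each step held by each form (percent, bars from 0 to 100), with replicate 1 in the left bar and replicate 2 in the right bar of each pair, for the 11 steps with several of the 32 genes. Aldoa, Pgam1 and Eno1 fill over 95% of their steps, Hk2 and Ldha over 80%, and Slc2a3, Pfkp and Pdha1 hold between 54.8% and 61.0%. The near-identical Eno1b is not counted at the enolase step.

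The level of Eno1 is uncertain, because a near-identical gene took more counts than Eno1 itself. Eno1b, annotated as protein-coding and 99.5% identical over its best alignment, held 28625 and 30964 expected counts where Eno1 held 23965 and 25704. With a second copy, the copies held 55.0% and 55.6% of the summed count in the libraries. With the counts of the copies added, Eno1 would stand at 459 and 484 TPM in place of 206 and 215. Gapdh had 117 near-identical copies, 98 of them with counts, which held 10.9% and 15.4% of the summed count, and with them it would stand at 543 and 681 TPM. The copies of Pgk1 held 8.29% and 11.7%, that of Pgam1 9.94% and 9.04%, that of Pdhb 8.89% and 8.12% and that of Gpi1 2.48% and 2.22%. Copies of Ldha and Ldhb held under 0.2%. The remaining 24 genes had no copy at 95% identity over 200 bases. Of the 28 genes whose mean reached 1 TPM, 20 (71.4%) had expected counts within 0.005 of a whole number in both libraries, where 87.7% of protein-coding genes did, and a count that is not whole marks reads divided between features. Exons shared with an overlapping gene touched Pfkfb2 (17.4% of exonic bases, with Gm29427), Pdha1 (16.1%, with Map3k15 on the other strand), Gpi1 (11.5%, with Gm26762 on the other strand), Pfkm (10.2%, with Gm26513) and Pfkp (5.58%, with Pitrm1 on the other strand). How such reads were divided is not stated in the labels or file headers.

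Transcript models annotated with a type other than protein-coding, called noncoding here, took a varied part of the output. Models of the protein-coding type were not checked for a full coding sequence. Of 22 genes with noncoding models and a mean of at least 1 TPM, the median share in protein-coding transcripts was 81.9% and 88.1%. Over 6250 protein-coding genes chosen in the same way it was 75.1% and 80.1%. The share was higher in replicate 2 in 14 of the 22, where 67.7% of protein-coding genes went that way. Pdk1 was lowest, with 18.4% and 18.9% of its TPM in its coding transcript. Its leading models were processed transcripts, Pdk1-202 (41.2% and 26.3%) and Pdk1-208 (22.2% and 28.8%). In TPM, the coding output of Pdk1 was thus a small part of the kinase level given above. Pdk1-202 is 327 bases long and held 106 and 49.1 expected counts, so its TPM share rests on few reads. The coding Pdk1-201, of 5185 bases, held 1395 and 1057 of the gene's 2778 and 2291 expected counts. Eno2 was led by a retained-intron model, Eno2-203 (25.1% and 18.2%), and 26.1% and 19.5% of its TPM was in coding transcripts. Pfkp had 40.0% and 45.0% in coding transcripts, of which Pfkp-201 held 25.8% and 25.9% of the gene's output. Slc2a3 had 78.6% and 86.5%, with a model marked for nonsense-mediated decay, Slc2a3-203, at 17.9% and 9.82%.

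The leading transcript was the same in both libraries for 27 of the 32 genes. For Gapdh it was Gapdh-203, at 40.9% and 64.5% of the output, and for Eno1 it was Eno1-202, at 60.1% and 72.8%. It differed for Hk1, Hk3, Pfkm, Slc16a3 and Pdk1. Pfkm went from Pfkm-202 in replicate 1 (58.1%, against 10.5% in replicate 2) to Pfkm-201 in replicate 2 (89.5%, against 41.9% in replicate 1). In Slc16a3, Slc16a3-201 (31.8% and 34.0%) and Slc16a3-202 (32.8% and 30.5%) were close in both libraries. In Hk1, Hk1-202 held 34.0% and 55.9% and Hk1-205 held 37.2% and 32.9%.

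**Figure D3:**
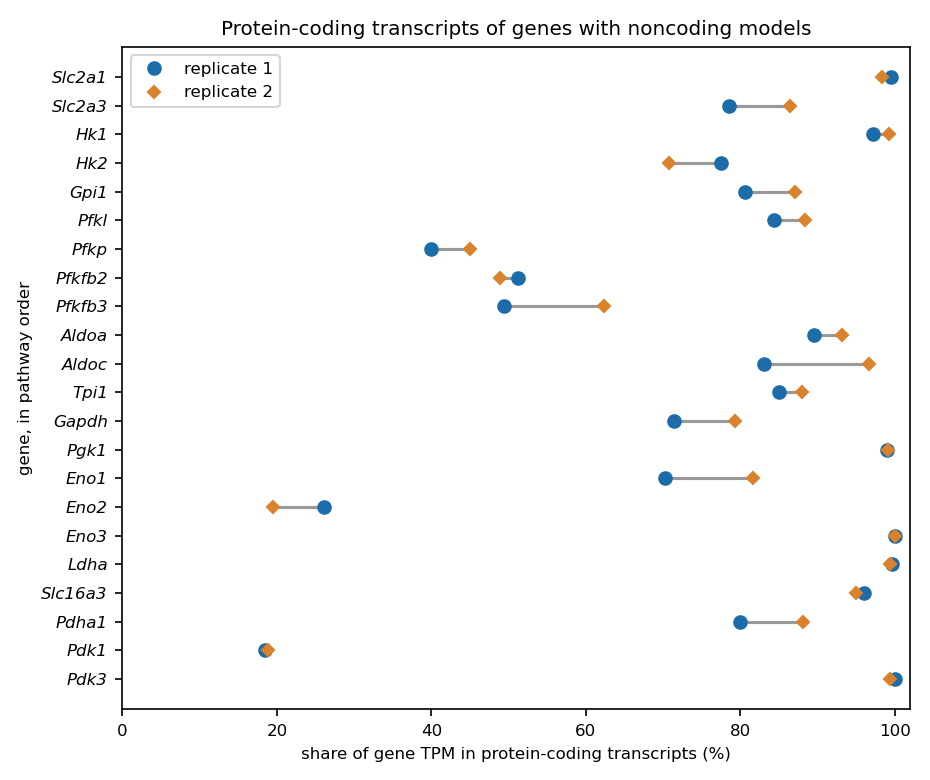
Share of each gene's TPM that lies in protein-coding transcripts (percent, axis from 0) in replicate 1 (circles) and replicate 2 (diamonds), for the 22 genes with noncoding models whose mean reached 1 TPM. Pdk1, Eno2 and Pfkp lie below 50% in both libraries, and Gapdh and Eno1 are higher in replicate 2.

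Between the 2 libraries, all 4 membrane transporters, joined here from the hexose and monocarboxylate steps, were lower in replicate 2, in TPM and under every other scaling tried. Of protein-coding genes whose mean reached 1 TPM, 71.7% were higher in replicate 2 in TPM and 51.8% with TMM scaling. With a pseudocount of 1 TPM, 3 of the transporters showed the largest differences of the 28 genes. As plain ratios of TPM, Eno3 (1.83-fold, higher in replicate 2) came between Slc2a1 (2.24-fold) and Slc2a3 (1.80-fold), with Slc16a3 at 1.75-fold. The transporters summed to 872 and 460 TPM. The 11 enzymes from aldolase to pyruvate kinase summed to 1681 and 1979 TPM. Of the 10 whose mean reached 1 TPM, 7 were higher in replicate 2 in TPM, a share close to the 71.7% of protein-coding genes. Their median difference of 0.23 equalled that of protein-coding genes, and it was -0.04 with TMM scaling. The difference is given as log2((TPM in replicate 2 + 1)/(TPM in replicate 1 + 1)), which understates it for low genes. With 1 library on each side, it is the spread within a group.

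Slc2a1 was the 1 gene of 28 at least 2-fold lower in replicate 2 (log2 difference -1.16), where 0.544% of the 10480 protein-coding genes whose mean reached 1 TPM were. None of the 28 was 2-fold higher, where 2.59% of those genes were. The interval bounds of Slc2a1 were far apart, 324 to 330 TPM against 144 to 148 TPM. Slc2a3 followed at -0.84, Slc16a3 at -0.80 and Pfkp at -0.61, while Slc16a1 differed by -0.23. At the other end, Eno3 stood at 0.74, Pgam1 at 0.50 and Pdk3 at 0.50, and Hk1 (0.01) and Pfkfb2 (0.02) hardly differed. Interval bounds in replicate 2 lay wholly above those of replicate 1 in 12 of the 28, where 50.6% of protein-coding genes did so, and wholly below in 9, where 13.4% did. The 9 were Slc2a1, Slc2a3, Pfkl, Pfkp, Tpi1, Ldha, Slc16a1, Slc16a3 and Pdk1.

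The direction of the smaller differences depended on the scaling. In TPM, 15 of the 28 genes were higher in replicate 2, where 71.7% of protein-coding genes were, and the median over all protein-coding genes was 0.23. With counts scaled by TMM factors, a normalization that centres most genes, 8 of the 28 were higher, where 51.8% of protein-coding genes were, and the median was 0.02. The median of the 28 was 0.01 in TPM and -0.27 with TMM. Hk1, Gpi1, Pfkfb2, Aldoa, Pgk1, Eno1 and Pkm were higher in TPM and lower with TMM, so their direction rests on the scaling. Slc2a1 (-1.47), Slc16a3 (-1.12) and Slc2a3 (-1.06) were past 2-fold with TMM, 3 of the 28 genes, where 2.56% of protein-coding genes were, and none was past 2-fold higher, where 1.68% were. Relative to the median of protein-coding genes in TPM, 19 of the 28 were lower, Slc2a1 by 1.39, Slc2a3 by 1.07, Slc16a3 by 1.03 and Pfkp by 0.85 on the log2 scale.

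The library difference of protein-coding genes moved with the GC content of the leading transcript, from a median of 0.40 in the lowest decile to 0 in the highest. Minus the median of their own GC decile, a measure added after seeing the data, Slc2a1 differed by -1.33, Slc2a3 by -1.10, Pfkp by -0.84 and Slc16a3 by -0.80. Of the feeder fibroblast markers given above, whose sum was 137 and 458 TPM, 5 were at least 2-fold higher in replicate 2, where the transporters were lower, and Thy1 was lower. Their part in the differences was not tested. No near-identical copy was found for any of the 4 transporters.

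**Figure D4:**
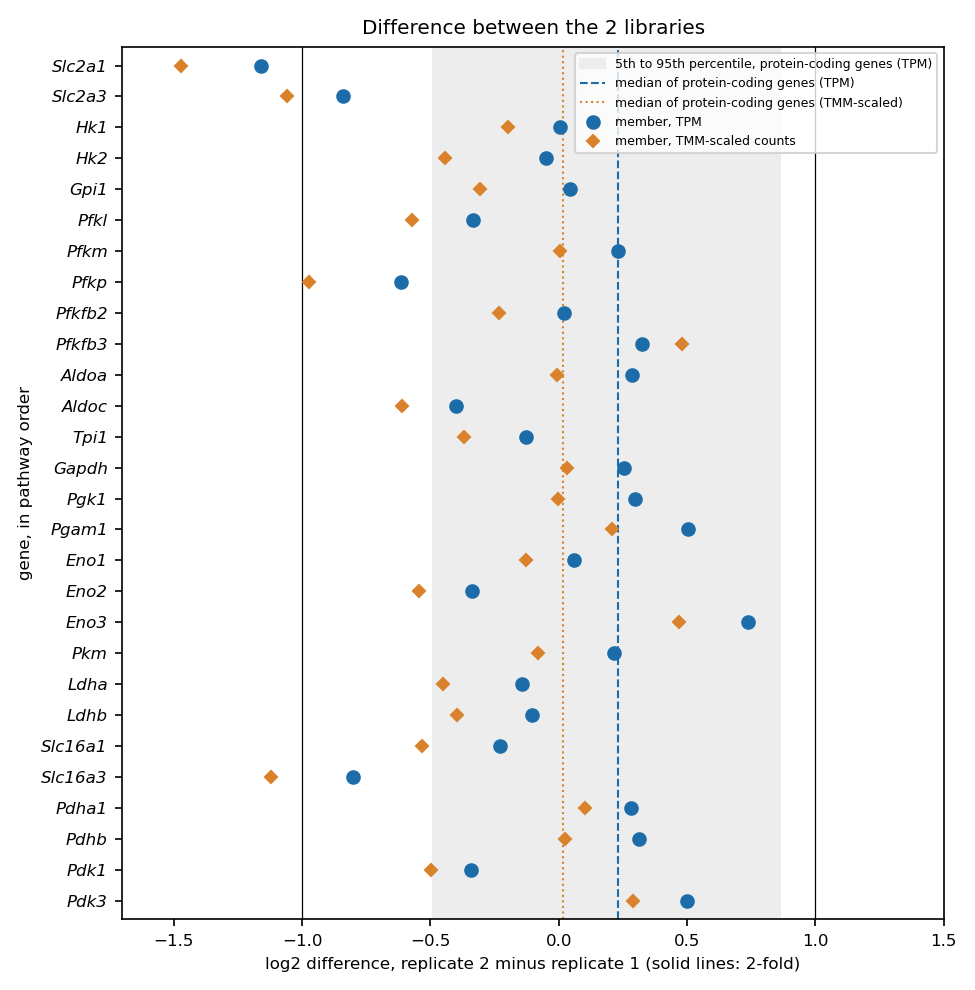
Log2 difference between replicate 2 and replicate 1 for the 28 genes whose mean reached 1 TPM, in TPM with a pseudocount of 1 (circles) and with TMM-scaled counts (diamonds), in pathway order. The grey band spans the 5th to the 95th percentile of protein-coding genes in TPM and so applies to the circles. The dashed and dotted lines mark the medians of protein-coding genes in TPM (0.23) and with TMM scaling (0.02). The circles of Slc2a1, Slc2a3, Slc16a3 and Pfkp lie left of the band. The diamonds of these genes and of Aldoc, Pfkl, Eno2, Slc16a1 and Pdk1 lie there too.

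The promoters of 31 of the 32 genes were in the RefSeq table on GRCm38.p6, Slc2a3 being the exception, as windows from 250 bases before to 50 bases after a start site. For each gene the window nearest to the start of its leading transcript was taken (for Pdk1 it lay 12514 bases away) and searched on both strands for ACGTG, the core that hypoxia-inducible factor binds and that also lies in the E-box CACGTG bound by Myc and related factors. The motif was present in 17 of 31 windows (54.8%), against 19.6% of all 32851 windows in the table. Of genes whose mean reached 1 TPM, it was present in 15 of 27 of these genes (55.6%) and in 27.0% of 8225 protein-coding genes, chosen by the same rule for the window. With GCGTG, the other form of that factor's core, counted as well, the shares were closer, 81.5% and 66.6%. A match is a description of the letters and does not show binding. Windows are shown for a pair of transporters that differed between the libraries and for Ldha, which held the most matches, with every match in capitals. They are on the plus strand, at chr4:119108495-119108794 for Slc2a1, chr11:120948817-120949116 for Slc16a3 and chr7:46845554-46845853 for Ldha.
Slc2a1: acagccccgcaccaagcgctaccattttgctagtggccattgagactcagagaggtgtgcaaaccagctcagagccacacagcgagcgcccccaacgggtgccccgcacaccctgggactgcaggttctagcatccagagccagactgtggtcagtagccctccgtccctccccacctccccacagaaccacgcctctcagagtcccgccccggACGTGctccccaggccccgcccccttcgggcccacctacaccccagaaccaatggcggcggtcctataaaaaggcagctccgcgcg
Slc16a3: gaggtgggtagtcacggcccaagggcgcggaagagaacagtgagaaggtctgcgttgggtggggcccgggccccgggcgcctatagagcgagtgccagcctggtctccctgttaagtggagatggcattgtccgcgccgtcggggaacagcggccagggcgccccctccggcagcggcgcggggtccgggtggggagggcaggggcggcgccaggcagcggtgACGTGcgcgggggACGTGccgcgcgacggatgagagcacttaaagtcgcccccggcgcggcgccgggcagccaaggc
Ldha: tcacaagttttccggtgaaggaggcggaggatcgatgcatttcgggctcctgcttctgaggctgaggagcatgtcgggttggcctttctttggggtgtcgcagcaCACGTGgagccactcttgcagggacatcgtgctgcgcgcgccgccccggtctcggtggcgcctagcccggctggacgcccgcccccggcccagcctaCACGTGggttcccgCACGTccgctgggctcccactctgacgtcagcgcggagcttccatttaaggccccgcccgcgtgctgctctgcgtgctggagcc

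The Slc2a1 window held 1 match, 36 bases before the start site. The Slc16a3 window held 2, at 27 and 14 bases before it, and that start site lay 587 bases from the start of the leading Slc16a3 transcript. The Ldha window held 5 matches, of which 4 were the 2 strands of 2 E-boxes, starting 145 and 48 bases before the start site. The log2 difference between the libraries in TPM was -1.16 for Slc2a1, -0.80 for Slc16a3 and -0.14 for Ldha.

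Genes that share the pathway's regulation or its neighbouring reactions were read as lists. Differences of 2-fold were counted, as above, with a pseudocount of 1 TPM among genes whose mean reached 1 TPM. Of all protein-coding genes, 46.3% reached 1 TPM in both libraries. Of those whose mean reached 1 TPM, 2.59% were 2-fold higher in replicate 2 and 0.544% were 2-fold lower (2.56% lower with TMM). Short lists would therefore be likely to hold few such genes. Of 10 genes of the hypoxia-inducible factor pathway, 7 reached 1 TPM in both libraries and none differed 2-fold. The highest were the oxygen sensor Egln2 (10.8 and 12.4 TPM), the oxygen-regulated subunit Hif1a (7.83 and 13.5 TPM) and its partner Arnt (5.63 and 5.96 TPM). Of 20 genes outside glycolysis known to be induced by hypoxia, 17 reached 1 TPM in both libraries. None of the 18 whose mean reached 1 TPM differed 2-fold in TPM, and with TMM scaling Ero1l did, at -1.11. Below that level, Car12 was at 0.93 and 0.44 TPM, 2.11-fold higher in replicate 1, and Car9 at 0.04 and 0.17 TPM. The 18 had a median difference of -0.02 where that of protein-coding genes was 0.23. The highest were the mitochondrial protein gene Fam162a (29.2 and 21.5 TPM) and the collagen-modifying enzyme genes Plod2 (19.0 and 22.7 TPM) and P4ha1 (20.2 and 17.4 TPM).

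Other isozymes of the same steps were mostly under 1 TPM: of 24, 4 reached 1 TPM in both libraries. Beside Adpgk, the highest were the intracellular hexose transporter gene Slc2a8 (15.1 and 6.11 TPM), 2.48-fold higher in replicate 1, and Bpgm (3 and 4.6 TPM), which makes 2,3-bisphosphoglycerate. The rest of the pyruvate dehydrogenase complex, with its phosphatases and the mitochondrial pyruvate carriers, was expressed throughout. All 8 of those genes reached 1 TPM in both libraries, and none was past 2-fold. In TPM all 8 were higher in replicate 2, where 71.7% of protein-coding genes were, with a median difference of 0.48. With TMM scaling the median was 0.32, and Pdpr was lower in replicate 2 (-0.05). The highest were Dld (8.16 and 16.0 TPM), Dlat (8.65 and 11.6 TPM) and Pdhx (5.95 and 9.08 TPM), all structural or catalytic parts of the complex.

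Of 10 genes of the pentose phosphate pathway, which branches off after glucose phosphorylation, 8 reached 1 TPM in both libraries and none differed 2-fold. Tkt (144 and 118 TPM) and Taldo1 (75.7 and 70.8 TPM), of its non-oxidative arm, and Pgls (23.8 and 22.1 TPM), of its oxidative arm, stood highest. Of 9 genes of gluconeogenesis, 4 reached 1 TPM in both libraries. Pyruvate carboxylase, Pcx, stood at 8.34 and 8.10 TPM, and G6pc3, the widely expressed glucose-6-phosphatase, at 3.05 and 3.18 TPM. The mitochondrial Pck2, which makes phosphoenolpyruvate, was at 10.9 and 3.73 TPM, 2.92-fold higher in replicate 1. Fbp2, the muscle fructose bisphosphatase, was at 0.56 and 2.46 TPM, higher in replicate 2 and low in both libraries.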

How the data were processed

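Total RNA-seq tables of 2 ES-E14 libraries were used. The deposited text file names mm10 and annotation M4. No aligner or quantifier is named in the labels or file headers. Per the file headers, the deposited tables hold an expected count, TPM and FPKM per gene and transcript, posterior mean TPM and interval bounds (used as the authors' signal values, of unstated level), and, per transcript, a deposited percent of the gene total. For the scaling factors alone, expected counts were rounded.

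Gene rows were matched by identifier to GENCODE M21. Shares were computed within each library from TPM. Differences used TPM + 1, with alternatives from counts scaled by edgeR 4.0.16 (TMM) and DESeq2 1.42.0 in R 4.3.3. Copies were transcripts aligned by BLAST 2.17.0 at 95% identity or more over 200 bases or more. Other steps used Python 3.11.15, pandas 2.3.3, numpy 2.4.6 and matplotlib 3.10.9. The scaling factors, the log2 difference and the count of genes past 2-fold were tested on simulated counts, and no other step was.

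The genes, lists and rules were chosen with earlier results of these data known. The text names all 32 genes; of each other list the 3 highest by mean and any past 2-fold with a mean of 1 TPM or more; all markers; and the 2 leading transcripts of genes described. With 2 libraries no p was computed. Depth was 43163300 and 45573512 expected counts. Alternatives were other TPM limits, pseudocounts, units, scalings, further isozymes, added copies and each library alone.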

Additional observations from a re-analysis of the deposited data

How the results depend on the processing

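The number of genes at least 2-fold lower in replicate 2 was 1 in TPM, 3 after rescaling to protein-coding genes, 3 with TMM factors, 3 with DESeq2 size factors, and 2 after subtracting the median of the GC decile, which was chosen after seeing the data. The number lower by any amount was 13 in TPM, 22 after that rescaling, 20 with TMM and 20 with DESeq2. Protein-coding genes summed to 193500 TPM in replicate 1 and 238378 TPM in replicate 2. Rescaling, which divides by that sum without mitochondrial-genome genes, therefore lowers replicate 2 relative to replicate 1. The cause of the unequal sums, and of the shift with TMM and DESeq2, was not tested. Of 43 alternative values of the leading shares that could differ from the main value, 23 lay within 1 SD of it and 20 did not. Those that changed most were Pdk1 (39.1% in protein-coding transcripts alone, a measure added after seeing the data), Pfkp (40.1% by that measure), Hk2 (67.5% with further isozymes), Pfkfb3 (47.3% with further isozymes), Slc16a3 (52.5% on counts with no length correction) and Pdha1 (71.7% on those counts). With either library alone, 28 genes passed 1 TPM and the Pkm M2 share ranged from 96.82% to 96.99%. No paired analysis was possible because the series has 1 group. With 3 counts per library, the level of Hk3 is imprecise.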

Other observations

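Of the 32 genes, 7 lie on chromosome 6, 5 on chromosome 11 and 3 on the X chromosome, which is present as 1 copy in this male line. Eno2, Tpi1 and Gapdh lie within 406415 bases of each other on chromosome 6, and their differences between the libraries were -0.34, -0.13 and 0.25 on the log2 scale in TPM. Slc2a3 lies 13175 bases from Nanog, a core pluripotency factor gene. Slc2a3 was at 399 and 222 TPM where Nanog was at 17.2 and 31.9 TPM, so these neighbours differed in opposite directions between the libraries.

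The vascular growth factor gene Vegfa, a hypoxia-induced gene named after its values were seen, was at 21.8 and 12.5 TPM. Its log2 difference was -0.75 in TPM and -0.93 with TMM scaling. Of the 18 hypoxia-induced genes whose mean reached 1 TPM, 8 were higher in replicate 2 in TPM, where 71.7% of protein-coding genes were. The median difference of the 18 was -0.02 in TPM and -0.25 with TMM scaling. For protein-coding genes the medians were 0.23 and 0.02. A shared direction of the list was not tested.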
